A study of Mus musculus with 8 samples.

Results

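The 10 genes described here are activity-regulated immediate early genes: Fos, Fosb, Jun, Junb, Egr1, Egr2, Egr3, Arc, Nr4a1 and Npas4. They were chosen by name, and all 10 were found among the 55367 genes of the deposited count table. The cells were Neuro2a, a mouse neuroblastoma line, transfected with plasmids for CRISPR activation (CRISPRa), in which a catalytically inactive Cas9 carries a transcriptional activator to a promoter chosen by a single guide RNA (sgRNA). CRISPRa samples received 750 ng of an sgRNA plasmid together with 750 ng of a sadCas9-VP64 plasmid. Control samples, called no sgRNA, received the sadCas9-VP64 plasmid without the sgRNA plasmid, in an amount the labels do not give. All samples thus carried the Cas9 activator, and the groups differed in the sgRNA plasmid and, as far as the labels state, possibly in total plasmid. The series, whose design text calls the data preliminary, is directed at Scn2a, a voltage-gated sodium channel gene. Counts of poly(A)-enriched RNA were analysed for 6 libraries, replicates 2, 3 and 5 of CRISPRa and 2, 3 and 4 of no sgRNA, out of 8 samples listed. The labels do not say that replicates came from separate cultures, so p-values measure the spread between these samples, which may be technical. In bulk RNA, a change in the number of cells of a kind and a change in RNA per cell cannot be told apart.

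Immediate early genes are transcribed within minutes of a stimulus, without new protein synthesis, when MAP kinases and calcium-dependent kinases act on transcription factors already bound at their promoters (CREB, SRF with its ELK partners, and MEF2). Most encode transcription factors that then drive a later set of genes. In neurons they are widely used as marks of recent synaptic activity, and in most other cells they respond to growth factors, serum and stress.

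Library totals ran from 29739422 to 34248514 counts, and mitochondrial genes took 1.04% to 1.30% of the counts. Scn2a was at 7.81 ± 0.714 CPM (counts scaled to the effective library size) with CRISPRa and 5.61 ± 1.31 CPM without the sgRNA (SD, n = 3), with an edgeR adjusted p of 0.0899. All 10 genes of a list of interferon-stimulated genes were higher with CRISPRa, and their summed level was 1277 to 1484 CPM in the CRISPRa libraries against 34.2 to 40.3 CPM in the controls. This list moved with every difference described below, and its part in them was not tested. Of 12 sympathetic neuroblast markers, 11 had more than 10 counts in every library and Nefl had at most 1. Their summed level was 1659 to 1893 CPM with CRISPRa and 1910 to 2078 CPM without the sgRNA. Macrophage markers summed to at most 1.65 CPM in any library. Of 8 fibroblast markers, 3 (Col3a1, Postn and Thy1) had no count in any library, and the list summed to 14.6 to 21.4 CPM with CRISPRa and 28.6 to 32.4 CPM in the controls. Schwann cell markers summed to 208 to 240.0 CPM with CRISPRa and 150 to 160.4 CPM in the controls, most of it Pmp22, while Foxd3 had no count. The part of these marker lists in the results was not tested.

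Across the 10 genes, Fosb and Jun rose with CRISPRa, Arc fell, and 7 did not pass the test. The call was an adjusted p under 0.05 in edgeR's quasi-likelihood test, with Benjamini-Hochberg adjustment over all 15117 genes tested. All 10 genes passed the filter on low counts. The 3 called of 10 stand beside 18.7% of all tested genes called, 9.47% higher and 9.25% lower. The log2 fold change (CRISPRa minus no sgRNA) was above 0 for 8 of the 10, with a median of 0.36, against a median of -0.0071 over all tested genes. Npas4 is among these 8 but passed the filter on low counts only because of its CRISPRa libraries, so its place there supports nothing. The groups did not overlap for 6 of the 10, 5 of them higher and Arc lower, where 36.4% of all tested genes had groups that did not overlap. Leaving out CRISPRa replicate 3 reduced the called members from 3 to 1. Other ways of processing gave up to 7 called members, with the values in the closing section. With 3 libraries against 3, an exact two-sided permutation of the libraries cannot give a p below 0.1 for a gene's mean CPM, and it gave 0.1 for each of the 6 genes without overlap.

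**Figure D1:**
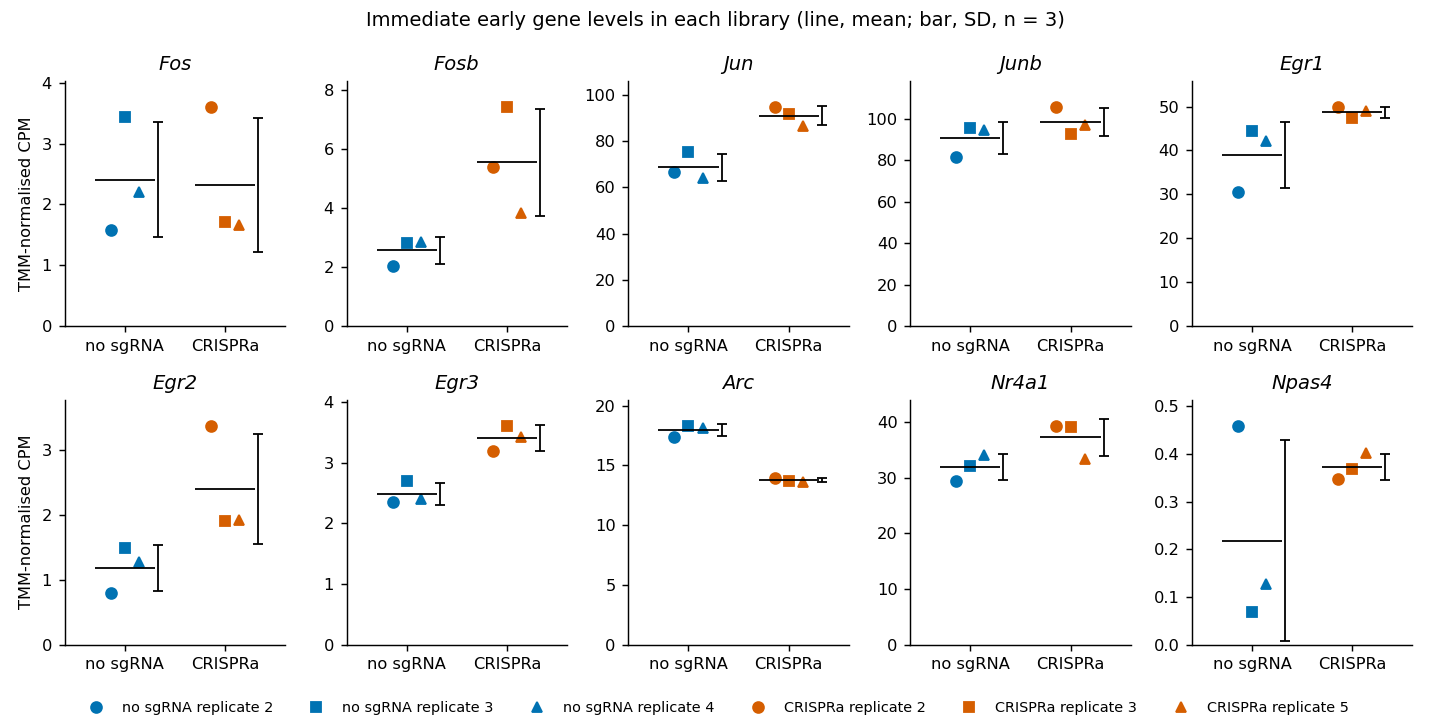
TMM-normalised CPM (vertical axes, starting at 0) of the 10 immediate early genes in each library, with no-sgRNA libraries in blue and CRISPRa libraries in orange; lines are group means and bars are SDs (n = 3). Fosb, Jun, Egr1, Egr2 and Egr3 lie higher in every CRISPRa library than in any control, Arc lies lower, and the groups of Fos, Junb, Nr4a1 and Npas4 overlap.

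**Figure D2:**
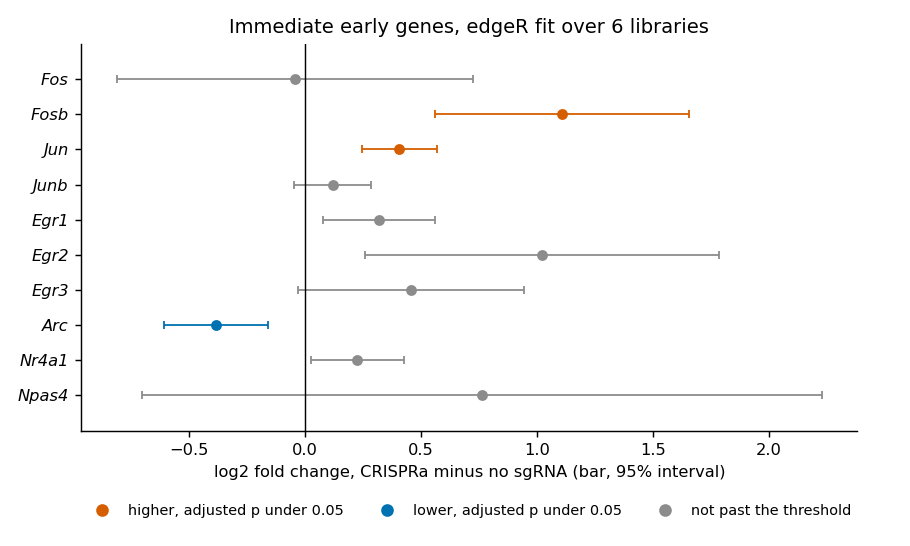
log2 fold change of each gene with its 95% interval (horizontal axis, CRISPRa minus no sgRNA). Fosb (1.11) and Jun (0.41) are past the threshold above 0, Arc (-0.38) is past it below 0, and the intervals of Fos and Npas4 are the widest that span 0.

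The FOS and JUN proteins pair to form AP-1, a dimeric transcription factor, and JUN proteins can also pair with each other. The promoters of their genes are shown because these 4 members share 1 pathway but not the same call: Fosb and Jun rose, and Fos and Junb did not pass the test. Each sequence is the 250 bases before the RefSeq start (GRCm38.p6), 5′ to 3′ on the gene's strand. Capitals mark matches to the motifs searched on both strands: the cyclic AMP response element (CRE) TGACGTCA and its core TGACG, the CArG box bound by SRF, the AP-1 site TGACTCA or TGAGTCA, the EGR site GCGTGGGCG or GCGGGGGCG, the interferon-stimulated response element, and the TATA box TATAAA. The core is part of the full CRE.
Fos (chr12:85473640-85473889, plus strand): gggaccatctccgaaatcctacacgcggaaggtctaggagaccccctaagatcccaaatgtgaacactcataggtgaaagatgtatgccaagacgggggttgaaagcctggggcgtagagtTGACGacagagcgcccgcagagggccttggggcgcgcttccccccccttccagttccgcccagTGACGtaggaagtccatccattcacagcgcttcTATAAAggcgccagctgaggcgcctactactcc
Fosb (chr7:19310046-19310295, minus strand): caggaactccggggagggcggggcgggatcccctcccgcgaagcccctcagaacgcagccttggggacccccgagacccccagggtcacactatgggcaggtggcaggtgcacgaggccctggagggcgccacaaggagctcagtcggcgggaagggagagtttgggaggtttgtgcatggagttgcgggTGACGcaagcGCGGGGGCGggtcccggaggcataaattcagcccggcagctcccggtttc
Jun (chr4:95052223-95052472, minus strand): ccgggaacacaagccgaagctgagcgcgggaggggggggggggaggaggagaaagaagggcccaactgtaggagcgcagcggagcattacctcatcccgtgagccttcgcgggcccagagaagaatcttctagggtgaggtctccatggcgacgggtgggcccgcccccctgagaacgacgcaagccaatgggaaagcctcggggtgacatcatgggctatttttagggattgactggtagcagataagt
Junb (chr8:84978749-84978998, minus strand): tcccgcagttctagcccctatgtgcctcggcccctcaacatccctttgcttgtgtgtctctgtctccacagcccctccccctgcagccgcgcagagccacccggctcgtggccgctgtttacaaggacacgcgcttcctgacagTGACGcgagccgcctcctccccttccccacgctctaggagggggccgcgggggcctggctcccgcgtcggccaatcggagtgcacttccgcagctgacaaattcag

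The Fos window held 2 CRE cores, first bases at -129 and -66 from the start, and a TATA box at -33. The Fosb window held 1 CRE core at -60 and an EGR site at -50. Junb had 1 core at -106, and none of the motifs searched was found in the Jun window. The Jun window does hold tgacatca, which differs from the full CRE in 1 letter and was not counted. The motifs were searched only as written and only in these 250 bases. Variant sites and sites further upstream were not looked for. Among 32851 promoter windows of the same length, 17.77% held a CRE core, 1.55% the full CRE, 4.46% an AP-1 site, 3.06% an EGR site, 2.98% an interferon-stimulated response element and 12.37% a TATA box. RefSeq windows were used for 7 of the 10 genes. Windows on chromosome 18, where Egr1 lies, were left out of the search of the members. For Egr2, which has 5 windows, a CArG box lay in 4 of them (1.47% of all windows), at 1 place shared by 3 overlapping windows and at another place in the fourth, and CRE cores lay in 3 of them. The Nr4a1 window held 4 CRE cores and an EGR site, and that of Npas4 held 2 CRE cores. These matches are letters only.

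Fosb (chromosome 7, 19302696 to 19310051, minus strand) encodes a FOS-family AP-1 subunit whose truncated splice form is known for building up in neurons after repeated stimulation. It had 186, 242 and 124 counts in CRISPRa replicates 2, 3 and 5, and 62, 84 and 90 in no-sgRNA replicates 2, 3 and 4. Every CRISPRa library was above every control. The lowest CRISPRa library was replicate 5, with 124 counts, and the highest control was replicate 4, with 90. The means were 5.54 ± 1.80 CPM with CRISPRa and 2.57 ± 0.464 CPM without the sgRNA (SD, n = 3), a rise of 1.11 on the log2 scale (SE 0.26; edgeR adjusted p 0.00755), a 2.16-fold rise. Without CRISPRa replicate 3, the library with the most Fosb, the log2 fold change was 0.85 and the edgeR adjusted p 0.0512, which ends the call. The counts do not separate the full-length and truncated forms.

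Fos (chromosome 12, 85473890 to 85477273, plus strand), the prototype of the class, had 124, 56 and 54 counts with CRISPRa and 48, 102 and 70 without the sgRNA. The groups overlapped fully: CRISPRa replicate 2 and no-sgRNA replicate 3 were high, and the other libraries of both groups were lower. Its means of 2.33 ± 1.10 and 2.41 ± 0.946 CPM (SD, n = 3) gave a log2 fold change of -0.04 (SE 0.36 by edgeR, adjusted p 0.951), with a 95% interval from -0.81 to 0.72. Differences within that interval were not detectable here, and the sign turned in 7 of 18 alternatives. Its coefficient of variation, the SD as a percentage of the mean, was 47.4% with CRISPRa and 39.3% without, where 1107 genes of like level had medians of 19.9% and 21.4%. The ratio of Fosb to Fos counts was higher in every CRISPRa library, with log2 ratios of 0.58, 2.11 and 1.20 against 0.37, -0.28 and 0.36. For this ratio an exact two-sided permutation gave p = 0.1, the smallest it can give, so different responses of the pair are not shown at a threshold of 0.05.

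Jun (chromosome 4, 95049034 to 95052222, minus strand), the main partner of FOS proteins in AP-1 and a target of the JNK kinases, rose. It had 3262, 2993 and 2809 counts with CRISPRa and 2039, 2231 and 2026 without the sgRNA. The groups did not overlap, at 91.0 ± 4.08 and 68.7 ± 5.78 CPM (SD, n = 3). Its log2 fold change was 0.41 (SE 0.08, edgeR adjusted p 0.00193), a 1.33-fold rise, and it passed in all 18 alternatives run for it. Exons of Junos, annotated on the opposite strand, cover 7.3% of the exonic bases of Jun, and whether counting used strand is not stated. Junos itself had 1 to 24 counts per library, at most 0.736% of those of Jun.

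Junb (chromosome 8, 84976910 to 84978718, minus strand), which can also restrain JUN, had 3641, 3027 and 3150 counts with CRISPRa and 2498, 2834 and 3000 in the controls. The groups overlapped, since CRISPRa replicate 3 at 92.7 CPM lay below no-sgRNA replicates 3 and 4 at 95.4 and 94.8 CPM. The means were 98.5 ± 6.59 and 90.7 ± 7.64 CPM (SD, n = 3), with a log2 fold change of 0.12 (95% interval -0.05 to 0.29, edgeR adjusted p 0.326). Without no-sgRNA replicate 2 it was 0.05, without CRISPRa replicate 2 it was 0.08, and with the gene-length trend removed it was 0.19, none of which passed. With that correction and a replicate block on 4 libraries it was 0.22 and passed (edgeR adjusted p 0.0085). The log2 ratio of Jun to Junb counts was -0.16, -0.02 and -0.17 with CRISPRa and -0.29, -0.35 and -0.57 without, an exact two-sided permutation p of 0.1.

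The EGR genes encode zinc finger transcription factors that bind GC-rich sites, and Egr1 is a classic target of MAP kinase signalling. Egr1 (chromosome 18, 34859823 to 34864984, plus strand) had 1717, 1544 and 1586 counts with CRISPRa and 930, 1320 and 1335 without the sgRNA. Its CRISPRa libraries were nearly level, at 48.7 ± 1.28 CPM, while control replicate 2, at 30.5 CPM, lay below the others, with a control mean of 39.0 ± 7.49 CPM (SD, n = 3). Its log2 fold change was 0.32 (SE 0.11) with an edgeR adjusted p of 0.0653, just short of the threshold. Without no-sgRNA replicate 2 the log2 fold change was 0.17 (edgeR adjusted p 0.215). Without no-sgRNA replicate 3 it was 0.42 and passed (edgeR adjusted p 0.0427).

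Egr2 (chromosome 10, 67535475 to 67542188, plus strand), best known as a regulator of myelination and hindbrain patterning, had 116, 62 and 62 counts with CRISPRa and 24, 44 and 40 in the controls. The groups did not overlap, and CRISPRa replicate 2 stood well above the rest. At 2.39 ± 0.844 against 1.18 ± 0.355 CPM (SD, n = 3), the log2 fold change of 1.02 (SE 0.36) was close in size to that of Fosb but had an edgeR adjusted p of 0.0595. Without CRISPRa replicate 2 the log2 fold change was 0.70 (edgeR adjusted p 0.286). It passed in 7 of the 12 alternatives that did not leave out a single library, among them DESeq2 with an adjusted p of 0.0322.

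Egr3 (chromosome 14, 70077203 to 70082614, plus strand), an EGR gene induced in neurons and lymphocytes, had 110, 118 and 111 counts with CRISPRa and 72, 80 and 76 without the sgRNA. The groups were close within themselves and did not overlap, at 3.41 ± 0.211 and 2.49 ± 0.182 CPM (SD, n = 3). The log2 fold change of 0.46 (SE 0.23, 95% interval -0.03 to 0.94) had an edgeR adjusted p of 0.191 and passed in none of its 18 alternatives. The model borrows the spread of other genes at this level, whose median coefficient of variation was 18.2% with CRISPRa against 6.20% for Egr3.

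Arc (chromosome 15, 74669083 to 74672570, minus strand) is the effector of the set: its protein acts at synapses on AMPA receptor removal and not as a transcription factor, and its RNA travels to dendrites. It had 480, 446 and 442 counts with CRISPRa and 530, 544 and 573 without the sgRNA, and it was the 1 member that fell. Both groups were tight, at 13.7 ± 0.167 and 17.9 ± 0.496 CPM (SD, n = 3). The log2 fold change was -0.38 (SE 0.11, edgeR adjusted p 0.0198), 1.30-fold lower with CRISPRa. Its coefficients of variation of 1.21% and 2.77% were far below the medians of 9.03% and 9.37% for 1964 genes of like level. Leaving out CRISPRa replicate 2, CRISPRa replicate 3 or no-sgRNA replicate 3 ended the call, with edgeR adjusted p-values of 0.0577, 0.0691 and 0.0681, while the log2 fold change stayed between -0.41 and -0.34 in all 18 alternatives. The log2 ratio of Jun to Arc counts was 2.76, 2.75 and 2.67 with CRISPRa and 1.94, 2.04 and 1.82 without (exact two-sided permutation p = 0.1). Jun was higher and Arc lower in every CRISPRa library than in any control. Their ratio therefore had to separate the groups, and this p adds nothing to the 2 separate results.

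Nr4a1 (chromosome 15, 101254269 to 101274795, plus strand), an orphan nuclear receptor, had 1357, 1276 and 1085 counts with CRISPRa and 899, 956 and 1080 in the controls. CRISPRa replicate 5, at 33.4 CPM, lay below no-sgRNA replicate 4, at 34.1 CPM, so the groups overlapped. At 37.3 ± 3.34 and 31.9 ± 2.34 CPM (SD, n = 3), the log2 fold change was 0.22 (SE 0.09, edgeR adjusted p 0.113). Without CRISPRa replicate 5 it was 0.30 and passed (edgeR adjusted p 0.0371).

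Npas4 (chromosome 19, 4984355 to 4990316, minus strand), the member most closely tied to calcium entry in neurons, was barely present. It had 12, 12 and 13 counts with CRISPRa and 14, 2 and 4 without the sgRNA. No-sgRNA replicate 2 held the most of any library, so the groups overlapped. The log2 fold change of 0.76 had a 95% interval from -0.70 to 2.23 (edgeR adjusted p 0.487), and no difference of that order was detectable at this depth.

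Levels of different genes were compared per kilobase of exon, as RPKM (the CPM divided by exon length in kilobases). Over the 6 libraries Junb was highest at a mean of 52.3 RPKM, then Jun at 25.0, Nr4a1 at 9.87, Egr1 at 9.78 and Arc at 5.18. Fos (1.01), Egr3 (0.669), Fosb (0.650) and Egr2 (0.525) followed, and Npas4 was last at 0.0713. The ranges over libraries overlapped between Nr4a1 and Egr1, and between each neighbouring pair from Fos to Egr2. The other neighbours were apart in every library. Single libraries were often at the edge of their group: no-sgRNA replicate 2 was the lowest control for 8 of the 10 genes and no-sgRNA replicate 3 the highest for 7, while CRISPRa replicate 2 was the highest of its group for 7.

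Each member was then set within its gene family, by its share of the family's RPKM. In the FOS family Fosl2, which encodes the subunit FRA2, made up 77.0% to 86.3% in every library, and Fosl1 at most 0.600%. Fosb took 8.29%, 12.3% and 6.06% with CRISPRa and 4.61%, 5.06% and 6.20% without, so the groups overlapped. The share of Fos was 14.7%, 7.53% and 7.001% with CRISPRa and 9.47%, 16.3% and 12.8% in the controls. Jun took 22.5% ± 0.0877 of the JUN family with CRISPRa and 19.3% ± 1.70 without (SD, n = 3), with no overlap. Egr1 dominated the EGR family at 86.6% to 91.1%, and Egr4 had no count in any library, which allows at most 0.0871 to 0.101 CPM by a floor of 3 counts (counting error only). If both mates of a read pair were counted, this limit would be higher. Of the shares in these 4 families, those of Nr4a1 and Nr4a3 differed most between the groups. Nr4a1 took 43.1%, 45.0% and 47.1% in the controls and 52.9%, 55.2% and 60.1% with CRISPRa, without overlap, and the share of Nr4a3 was lower by 10.3 percentage points on average. The exact two-sided permutation p was 0.1 for the shares of Jun, Egr1, Egr2, Nr4a1 and Nr4a3, the smallest possible, and 0.2 for Fosb.

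**Figure D3:**
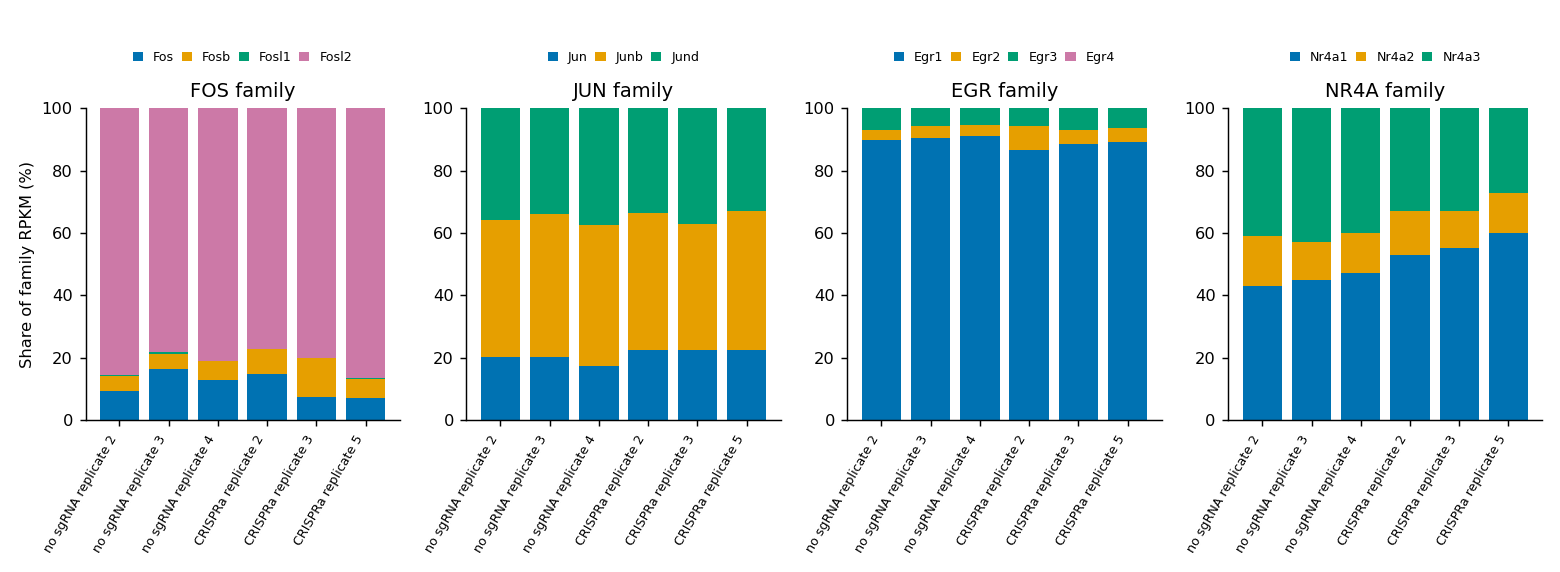
Share of each gene in its family's summed RPKM (vertical axis, %) in each of the 6 libraries, for the FOS, JUN, EGR and NR4A families. Fosl2 and Egr1 dominate their families in every library, and the share of Nr4a1 is 43.1% to 47.1% in the controls and 52.9% to 60.1% with CRISPRa.

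Genes that act in the same programme were examined from lists of known pathway genes. Among other AP-1 subunit genes, 5 of 8 tested were called, 4 higher and 1 lower (18.7% of all tested genes were called), with a median log2 fold change of 0.25. Atf3, a stress-induced partner of JUN, rose from 76.2 ± 7.21 to 161.7 ± 23.9 CPM (SD, n = 3), a rise of 1.08 on the log2 scale (SE 0.10; edgeR adjusted p 1.97e-06). Fosl2 rose from 61.3 ± 5.72 to 79.2 ± 4.79 CPM (edgeR adjusted p 0.00566), the FOS-family member with by far the most RNA here. Batf2 and Batf3, which encode AP-1 dimer partners known mainly from immune cells, rose from low levels, Batf2 from 8, 30 and 26 counts to 59, 58 and 62 and Batf3 from 6, 2 and 2 to 18, 16 and 17. Batf2 and Batf3 passed the filter on low counts only because of their CRISPRa libraries, so their place among the 5 calls supports nothing. With no filter beyond 1 count the call of Batf3 was lost (edgeR adjusted p 0.0760) and that of Batf2 kept (0.0078). In the 4 libraries numbered 2 and 3, Batf3 lost its call with a replicate block and without it (edgeR adjusted p 0.152 and 0.127). Batf2 lost its call there only without the block (edgeR adjusted p 0.0641). Jdp2, which encodes a JUN dimerisation partner that represses AP-1, fell from 66.5 ± 2.62 to 54.9 ± 3.41 CPM (edgeR adjusted p 0.0193). When 1 library was left out the list kept 2 to 4 calls: 3 without CRISPRa replicate 2, 2 without CRISPRa replicate 3, 3 without CRISPRa replicate 5, 3 without no-sgRNA replicate 3 and 2 without no-sgRNA replicate 4. Batf2 then passed only without no-sgRNA replicate 3 and Batf3 only without no-sgRNA replicate 2. Jdp2 lost its call without CRISPRa replicate 3, no-sgRNA replicate 3 or no-sgRNA replicate 4 (edgeR adjusted p 0.125, 0.0639 and 0.0560), and with the gene-length trend removed (0.0514).

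Rapid response genes outside the 10 members included several with larger changes. Of 38 listed, 34 were tested and 16 called, 14 higher and 2 lower, or 47.1% beside 18.7% of all tested genes, with a median log2 fold change of 0.19. Sgk1, a kinase induced by serum and glucocorticoids, rose from 50.8 ± 3.27 to 134.1 ± 12.5 CPM (SD, n = 3), a rise of 1.40 on the log2 scale (edgeR adjusted p 8.25e-09). Csrnp1, a nuclear protein first found through axin, rose by 1.38, Klf6, a zinc finger factor, by 1.07, and Ccn1, a secreted matrix protein, by 1.04 on the log2 scale (edgeR adjusted p at most 0.000134). Ier3, which encodes a stress-response protein, rose from 9.45 ± 0.632 to 19.0 ± 2.69 CPM (SD, n = 3).

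Of the 5 listed genes for MAP kinase phosphatases, enzymes that switch off MAP kinases, 4 passed and Dusp2 did not, beside 18.7% of all tested genes. These 5 are part of the rapid response list and were not a list of their own. Of these, Dusp4, Dusp5 and Dusp6 were picked after their values were seen. Dusp1 rose from 7.91 ± 1.03 to 18.2 ± 0.769 CPM (SD, n = 3), a rise of 1.20 on the log2 scale (SE 0.13; edgeR adjusted p 1.42e-05). Dusp4 rose by 0.68, Dusp5 by 0.77 and Dusp6 by 0.41 on the log2 scale (edgeR adjusted p 1.56e-05, 0.00466 and 0.000427), while Dusp2 differed by -0.06 (edgeR adjusted p 0.799). Dusp1, Dusp4, Dusp5 and Dusp6 kept their calls in all 18 alternatives run for each.

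Gadd45b, a stress gene linked to DNA demethylation and MAP kinase signalling, and Nr4a3, the relative of Nr4a1, were the 2 that fell. Gadd45b went from 45.2 ± 6.58 to 23.8 ± 6.83 CPM and Nr4a3 from 49.9 ± 2.32 to 35.9 ± 8.76 CPM (SD, n = 3), with edgeR adjusted p-values of 0.00142 and 0.0233. In the 4 libraries numbered 2 and 3, with no block, the log2 fold change of Gadd45b was -0.58 and that of Nr4a3 -0.29, and both passed. CRISPRa replicate 5 had the least of both, with 517 and 837 counts, and without it the log2 fold change of Nr4a3 was -0.28. Nr4a3 lost its call without no-sgRNA replicate 3 or no-sgRNA replicate 4 (edgeR adjusted p 0.0947 and 0.0614). The log2 ratio of Nr4a1 to Nr4a3 counts was -0.09, -0.03 and 0.37 with CRISPRa and -0.70, -0.70 and -0.53 without (exact two-sided permutation p = 0.1). Ier2, Maff, Trib1, Sik1 and Myc, also rapid response genes, had log2 fold changes between -0.05 and 0.01 and did not pass.

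**Figure D4:**
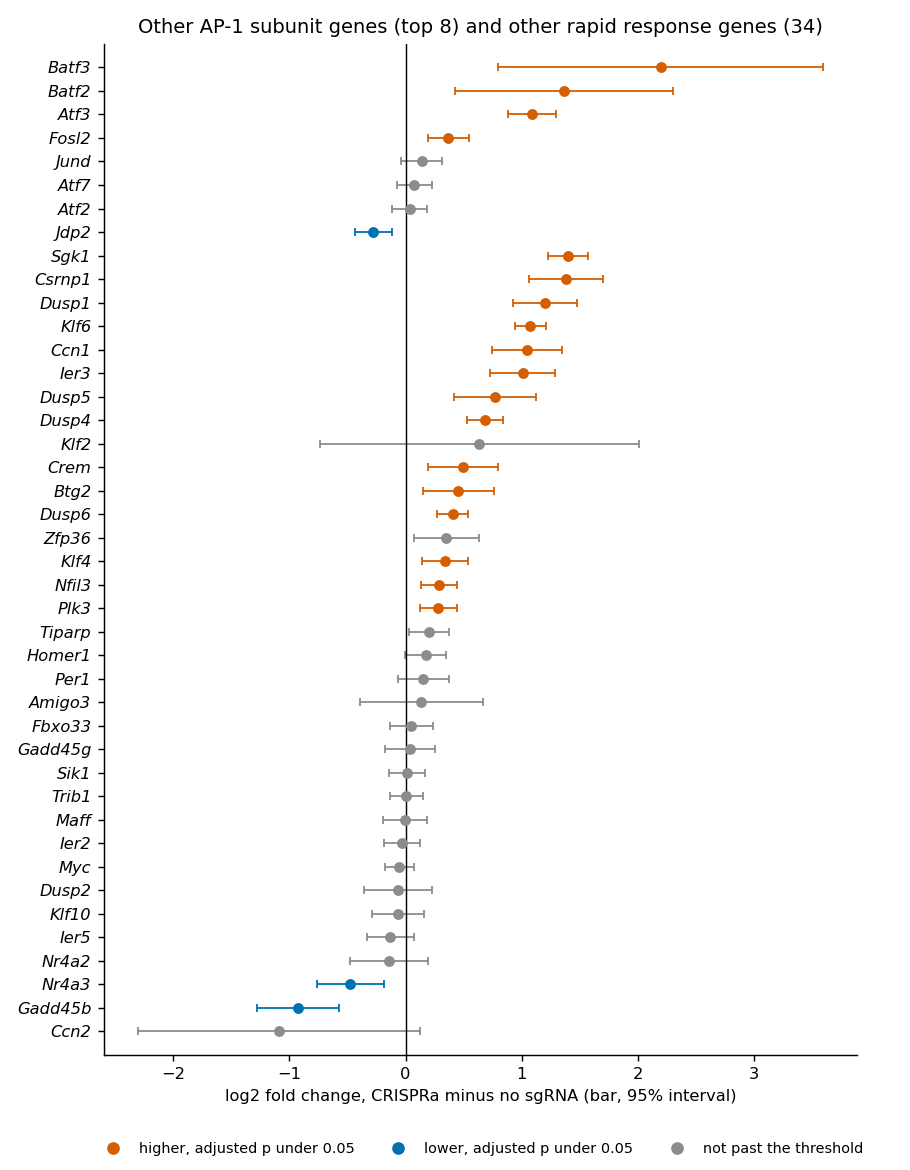
log2 fold change (horizontal axis, CRISPRa minus no sgRNA, bars 95% intervals) of the tested genes among other AP-1 subunits (8 genes, top) and other rapid response genes (34 genes). Orange genes rose, blue genes fell and grey genes did not pass; Batf3, Batf2, Atf3, Sgk1, Csrnp1, Dusp1, Klf6, Ccn1 and Ier3 lie above 1.

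Late response genes, the downstream effectors that follow the transcription factors in neurons, were mostly without counts. Of 13 listed, 7 (Nptx2, Pcsk1, Inhba, Penk, Sst, Crh and Tac1) had no count in any library, at a floor of 0.0871 to 0.101 CPM, and Bdnf, the neurotrophin gene, had at most 10. Here too the floor would be higher if both mates of a read pair were counted. Of the 5 tested, 2 were called, both higher, beside 18.7% of all tested genes. Vgf, which encodes a secreted neuropeptide precursor, rose from 233.0 ± 9.97 to 381.7 ± 44.1 CPM (SD, n = 3), a rise of 0.71 on the log2 scale (SE 0.08; edgeR adjusted p 1.76e-05). Nptx1, a pentraxin that clusters glutamate receptors, rose from 10, 10 and 6 counts to 43, 40 and 34, a rise of 2.03 on the log2 scale (edgeR adjusted p 0.00837). Too few controls reached the cutoff of the filter on low counts, so Nptx1 was tested only because of its CRISPRa libraries. Its place among the 2 calls therefore supports nothing, though it also passed with no filter beyond 1 count (edgeR adjusted p 0.00241). Scg2, a granin gene, had an edgeR adjusted p of 0.0511.

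The kinases and factors that act on immediate early promoters changed at about the background rate, 8 of 35 tested against 18.7%, 5 higher and 3 lower, with a median log2 fold change of 0.04. Camk2b, a calcium/calmodulin kinase subunit, rose from 15.7 ± 1.47 to 34.8 ± 5.44 CPM (SD, n = 3), a rise of 1.15 on the log2 scale (edgeR adjusted p 1.26e-05). Mapk10, the neuronal JNK, rose by 0.64 (edgeR adjusted p 0.00139), and Camk2d, Elk4 and Mrtfb rose by 0.28 to 0.33 on the log2 scale. Crtc3, a CREB co-activator, fell by 0.49 (edgeR adjusted p 0.000858), and Camk2g fell by 0.28 and Srf by 0.29 on the log2 scale. Creb1, which encodes a cyclic AMP-responsive factor, and the MAP kinase pathway genes Mapk3, Map2k1 and Map2k2 had log2 fold changes from -0.07 to 0.05 and did not pass. Leaving out CRISPRa replicate 2, CRISPRa replicate 5, no-sgRNA replicate 3 or no-sgRNA replicate 4 left 5 calls each. The call of Srf, at an edgeR adjusted p of 0.0491, was lost without CRISPRa replicate 2 or 5 or no-sgRNA replicate 2 or 3, and also with another scaling, such as median-ratio scaling (0.0542). Camk2g was lost without CRISPRa replicate 2 or 5 or no-sgRNA replicate 3 or 4, Elk4 without CRISPRa replicate 2 or no-sgRNA replicate 2 or 4, and Mrtfb without CRISPRa replicate 3 or 5 or no-sgRNA replicate 3 or 4. With the gene-length trend removed, the Camk2d log2 fold change was 0.12 (edgeR adjusted p 0.208) and no longer passed, and Mrtfb had an edgeR adjusted p of 0.0586.

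Partners and limiters of the members, from the EGR co-repressors to the dimer partners and RNA decay factors, showed 2 calls of 8 tested, beside 18.7% of all tested genes. Rxra, a nuclear receptor that can pair with NR4A1, rose from 37.8 ± 0.448 to 45.0 ± 0.984 CPM, and Zfp36l2, which destabilises AU-rich RNAs, from 269.4 ± 1.85 to 307.7 ± 11.4 CPM (SD, n = 3), with edgeR adjusted p-values of 0.0322 and 0.0356. Both calls were lost without CRISPRa replicate 2, CRISPRa replicate 3, no-sgRNA replicate 2 or no-sgRNA replicate 3, where edgeR called none of the list and 2 to 3 genes had an unadjusted p under 0.05. Rxra was also lost without CRISPRa replicate 5 or no-sgRNA replicate 4. Arnt2, the usual partner of NPAS4, had no count in any library. Nab1 and Nab2, which encode EGR co-repressors, had log2 fold changes of 0.21 and -0.07 and did not pass.

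**Figure D5:**
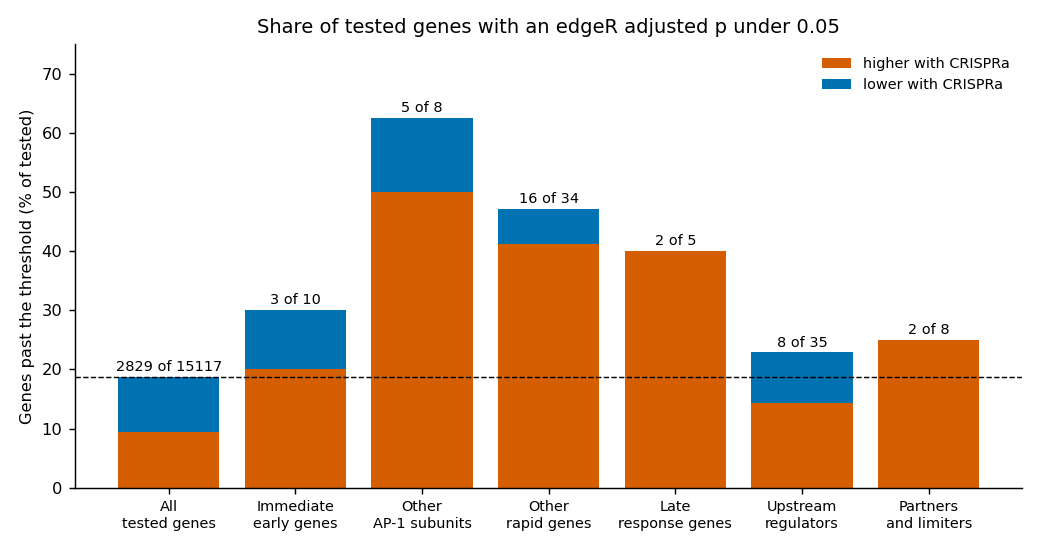
Percentage of tested genes past an edgeR adjusted p of 0.05 (vertical axis) in each list, split into higher (orange) and lower (blue) with CRISPRa, with the share of all tested genes as a dashed line. The 10 immediate early genes are at 3 of 10, the other rapid genes at 16 of 34 and the upstream regulators at 8 of 35, beside 18.7% overall.

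The authors' deposited table, their own comparison covering 8 samples, gives the direction of its contrast nowhere. A positive value was taken to mean higher with CRISPRa, because all 10 interferon-stimulated genes are positive in it. It lists 6 of 9 members with an adjusted p under 0.05, beside 28.6% of its genes with an adjusted p. In the authors' deposited table Fosb has a log2 fold change of 1.23, Jun of 0.49, Egr2 of 1.45 and Arc of -0.50 (adjusted p 2.77e-09, 9.22e-13, 2.16e-05 and 3.10e-05). Egr1 (0.28, adjusted p 0.0402) and Nr4a1 (0.24, adjusted p 0.00993) pass in the authors' deposited table, Fos, Junb and Egr3 do not, and Npas4 has no adjusted p. Its log2 fold changes of Fos (0.23) and Npas4 (-0.26) have the opposite sign to those from the 6 libraries. That table and the 6 libraries share samples, so they are not separate evidence.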

How the data were processed

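Poly(A)-enriched RNA of 6 of the 8 listed samples was analysed. The counts are the authors' deposited whole-number counts per gene, aligned with STAR 2.5.1b to mm10 and counted with featureCounts, per the submitters' processing notes. Annotation, strand use and the treatment of read pairs and multi-mapping reads are not given in the sources used here. Of counts from 1 to 20, between 72.0% and 74.3% in each library are even, so mates may have been counted apart. The authors deposited a DESeq2 table too, per the file headers, with a signal (mean of normalised counts), log2 fold change, Wald score and p-values, which were not recomputed. Exon lengths come from the deposited count table. Spans match GENCODE M21 for all members but Junb, for which the deposited span is given.

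Counts were tested with edgeR 4.0.16 (R 4.3.3) quasi-likelihood F tests, filterByExpr and TMM scaling, without covariates. The planned fits took the samples that have counts, 6 of the 8 listed. SE is the log2 fold change divided by the square root of F, and 95% intervals use the fit's total degrees of freedom. CPM and RPKM are TMM-scaled. Libraries of the same group differed by more than sampling noise (chi-square per degree of freedom 4.88 to 18.7 over pairs). Replicates 2 and 3 were closest, at 4.88 with CRISPRa and 6.28 without the sgRNA. Pairs with CRISPRa replicate 5 or no-sgRNA replicate 4 were at 15.3 to 18.7, and the cause was not tested. The procedure was tested on simulated data. The changes planted there were larger than those of Jun and Arc, so that test does not bear on changes of their size. DESeq2 1.42.0 and limma 3.58.1 served as alternatives, with other scalings, filters, a replicate block, a correction for gene length in each library and 1 library left out at a time. Halved counts were an alternative chosen after seeing the data.

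Members, lists and tests were chosen with earlier results of these data known. The text names all members and the called genes of each list, up to 5 by size of change. Ier3, Dusp2, Dusp4, Dusp5, Dusp6, Gadd45b, Nr4a3, Srf, Camk2d, Camk2g and the genes named for not passing were chosen after their values were seen. The values of 1 gene of the upstream list are not reported here. Genes of like level lie within 1.5-fold in mean CPM. Promoter windows come from RefSeq (GRCm38.p6).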

Additional observations from a re-analysis of the deposited data

How the results depend on the processing

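The number of members called was 3 and moved by over 1.5 times under 6 settings. It fell to 1 without CRISPRa replicate 3, where Jun alone passed. It was 5 with no filter beyond 1 count and 5 with DESeq2, where Egr1 and Egr2 were added. The labels do not say that equal replicate numbers mark a pair, and the replicate 2 minus replicate 3 differences of both groups were correlated at r = 0.0045 over 15117 genes. A replicate block on the 4 libraries numbered 2 and 3 gave 6 members, the same 4 libraries without the block also gave 6, and the block with the gene-length trend removed gave 7. Egr1, Egr2 and Nr4a1 were gained in these 3 fits, and Junb in the last of them (log2 fold change 0.22, edgeR adjusted p 0.0085). All other alternatives with 6 libraries gave 3 or 4. Leaving out 1 library gave 1 to 4 members, 2 to 4 other AP-1 genes, 12 to 17 other rapid genes, 2 to 3 late response genes, 5 to 8 upstream regulators and 0 to 2 partners and limiters. The log2 fold change of Fos turned to 0.0931 with the block, 0.0920 in the same 4 libraries without it, 0.0175 with the gene-length trend removed and 0.13 with both. Leaving out 1 library gave Fos values from -0.50 to 0.30. The cause was not tested. Jun passed in all 18 alternatives, Fosb in 17 and Arc in 15. The number of all tested genes called ran from 1987 to 3271. With 3 libraries a group and at most 124 counts for Fos, Egr2, Egr3 and Npas4, the intervals of these genes are wide.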

Other observations

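By the rule for likeness, the genes whose log2 CPM over the 6 libraries was most like that of a member were taken from 9464 genes with a mean of at least 10 CPM. For Fos they were Fam43a, Ampd3 and Abhd16a (Pearson r 0.996, 0.968 and 0.963), whose log2 fold changes lay between -0.04 and 0.00289. For Jun they were Ssbp2, Lipa and Mfsd6 (r 0.998, 0.995 and 0.994). Lipa, the lysosomal acid lipase gene, and Mfsd6 rose with CRISPRa (log2 fold change 0.40 and 0.25, edgeR adjusted p 0.00318 and 0.0133). Ssbp2, the most like Jun, did not pass (log2 fold change 0.096, edgeR adjusted p 0.288). For Egr1 they were Foxo4, Arl6ip5 and Mfn2 (r 0.992, 0.984 and 0.982), and none of these passed. With 6 points and 9464 genes compared, correlations of this size describe these libraries only.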
